A study of Mus musculus with 12 samples.

Results

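The B cell identity genes were 9 genes that mark the B lymphocyte lineage: Cd79a, Cd79b, Ms4a1, Pax5, Blk, Fcer2a, Cr2, Cd22 and Ebf1. They were chosen by gene name, and every probe of theirs in the table of intensities was read on each array. Of the 9 genes, 8 had at least 1 probe under their name, which made 17 of 46237 probes. Cd79a is not analysed here, because no probe carried its name, gene number or transcript in the probe list that was used. After a filter on dim probes (detection p under 0.05 on at least 3 of 12 arrays), 14 of the 17 probes, from 7 genes, stood among the 26390 probes tested.

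The study took CD11c+ cells from mouse spleens with magnetic beads and hybridised each sample's RNA to 1 Illumina MouseWG-6 v2 array. The series title places apolipoprotein E, the lipoprotein component encoded by Apoe, from such cells in atherosclerosis. Each group had 3 arrays: ApoE-/- mice on a high cholesterol diet (HC, samples 4, 5 and 6), ApoE-/- mice on normal chow (samples 1, 2 and 3), Bl6 wild-type mice on HC (samples 10, 11 and 12) and Bl6 mice on chow (samples 7, 8 and 9). The labels give no age, sex or time on the diet, and the cells had no other treatment. All groups share the selection on beads, so each RNA came from a mixed fraction rather than from one purified cell type. Whether a group's 3 samples came from separate mice is not stated in the labels. The p-values therefore measure only how far these samples spread, and that spread may be technical.

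B cells recognise antigen through a membrane immunoglobulin that signals through the paired chains CD79A and CD79B. Blk is a kinase of that pathway, Cd22 damps it, and Cr2, the complement receptor CD21, lowers its threshold. Ebf1 and Pax5 are the transcription factors that establish and keep the lineage, Ms4a1 encodes the surface protein CD20, and Fcer2a encodes CD23, the low affinity IgE receptor. In mouse spleen, CD21 is abundant on marginal zone B cells and CD23 on follicular B cells. CD11c is best known from dendritic cells, and some B cells carry it too.

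On the log2 scale, Apoe lay between 5.50 and 5.93 on the ApoE-/- arrays and between 12.18 and 13.29 on the Bl6 arrays. Itgax, which encodes CD11c, was detected on all 12 arrays, at 8.12 to 8.73 on ApoE-/- arrays and 8.03 to 8.61 on Bl6 arrays. Xist lay between 4.17 and 4.39 on ApoE-/- arrays and between 9.75 and 10.88 on Bl6 arrays. The Y-linked Eif2s3y lay between 9.75 and 10.44 on ApoE-/- arrays and between 4.11 and 4.41 on Bl6 arrays, so genotype and sex-linked state cannot be told apart. Per array, 22077 to 23245 probes were detected (47.7% to 50.3%), and the median intensity was 102 to 120. No batch or chip is named for any array. For the 6 ApoE-/- arrays, the table of intensities and the second deposited table give opposite diets, and nothing in the files settles it. Names here follow the table of intensities.

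The 9 genes lie on 7 chromosomes (GRCm38.p6). Cd79a (chr7:24897497-24901858) and Cd22 (chr7:30865404-30880342) are both on the chromosome of Apoe, 5.2 and 11.2 Mb from it. The others are Cd79b (chr11:106311341-106314562), Ebf1 (chr11:44618100-45008096), Ms4a1 (chr19:11249679-11266149), Pax5 (chr4:44524748-44710694), Blk (chr14:63372837-63417187), Fcer2a (chr8:3680280-3694174) and Cr2 (chr1:195136811-195176880). RefSeq promoter windows of 300 bases were at hand for 6 of the 9 genes, 9 windows in all. They were searched on both strands for the letters of 4 motifs of B cell regulators: TCCCNNGGGA of the EBF family, the octamer ATTTGCAT of POU factors, GGAAGT of ETS factors and the E box CAGGTG of E proteins. Fcer2a and Cr2 are shown because they varied most alike over the arrays, and Cd22 because it varied least like the others: Fcer2a (chr8:3694175-3694424, minus strand), Cr2 (chr1:195176720-195176969, minus strand) and Cd22 (chr7:30879029-30879278, minus strand), each as the 250 bases before an annotated start. The starts of Cr2 and Cd22 used here lie inside the annotated gene. Capitals mark the motif letters.
Fcer2a: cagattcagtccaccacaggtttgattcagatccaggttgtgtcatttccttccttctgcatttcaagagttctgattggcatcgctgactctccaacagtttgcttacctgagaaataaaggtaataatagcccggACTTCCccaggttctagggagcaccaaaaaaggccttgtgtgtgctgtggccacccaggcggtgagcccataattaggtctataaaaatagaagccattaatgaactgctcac
Cr2: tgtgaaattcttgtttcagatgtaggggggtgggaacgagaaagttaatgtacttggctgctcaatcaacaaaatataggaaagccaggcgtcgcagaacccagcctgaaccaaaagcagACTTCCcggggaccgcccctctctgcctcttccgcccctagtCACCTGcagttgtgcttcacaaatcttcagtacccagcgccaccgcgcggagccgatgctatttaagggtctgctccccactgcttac
Cd22: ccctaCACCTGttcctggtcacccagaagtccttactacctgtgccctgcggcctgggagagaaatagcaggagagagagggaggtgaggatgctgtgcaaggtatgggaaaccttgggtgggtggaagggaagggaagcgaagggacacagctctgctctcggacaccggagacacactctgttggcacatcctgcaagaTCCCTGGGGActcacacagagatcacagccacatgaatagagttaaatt
The EBF letters stood in 1 of the 9 member windows, at position -49 of Cd22, and in 0.904% of all 32851 windows. The ETS letters stood in 4 of the 9, among them position -113 of Fcer2a and -130 of Cr2, and in 23.8% of all windows. The E box letters stood in 4 of the 9, at -88 of Cr2 and -245 of Cd22 among others, and in 20.2% of all. The octamer stood in 0 of the 9 and in 1.74% of all windows. These matches describe letters only.

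Across the 12 arrays, the mean level of the B cell identity genes varied more inside the Bl6 groups than inside the ApoE-/- groups. Genes with a wide pooled SD within groups, such as Cr2 (0.67) and Fcer2a (0.37), weigh more in that mean. Cd79b (0.17) and Cd22 (0.14) weigh less. As a mean over the 7 tested genes, each by its brightest tested probe, the level on the log2 scale was 9.43, 9.10 and 9.37 on the ApoE-/- HC arrays and 9.28, 9.30 and 9.03 on the ApoE-/- chow arrays. It was 9.19, 9.63 and 9.20 on the Bl6 HC arrays (samples 10, 11 and 12) and 9.25, 10.10 and 9.77 on the Bl6 chow arrays (samples 7, 8 and 9). Samples 8, 9 and 11 thus stood above the other 9 arrays, which all lay between 9.03 and 9.43. The group means were 9.30 ± 0.18 in ApoE-/- HC, 9.21 ± 0.15 in ApoE-/- chow, 9.34 ± 0.25 in Bl6 HC and 9.70 ± 0.43 in Bl6 chow (SD, n = 3 each). Sample 8 read highest in its group for 7 of 7 genes, although for Ebf1 it was level with sample 9 to 2 decimals (7.18), and highest of all 12 arrays for 6 of the 7. Sample 7, of the same group, read lowest there for 6 of 7. Sample 11 was the highest Bl6 HC array for 6 of 7 genes. In such mixed RNA, fewer B cells and less B cell RNA per cell cannot be told apart.

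**Figure D1:**
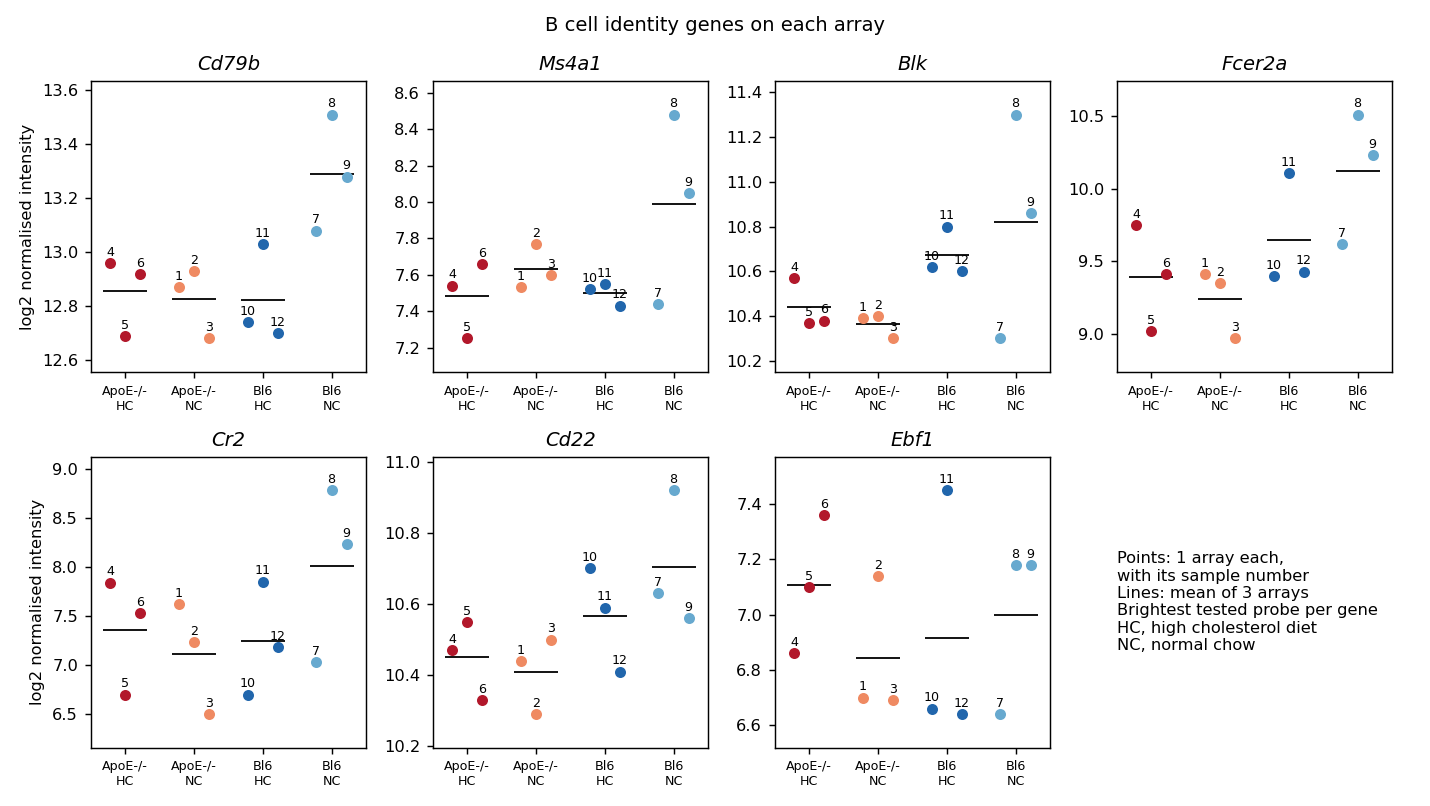
The log2 normalised intensity of 7 B cell identity genes (vertical axis, 1 panel per gene, brightest tested probe) on each array of the 4 groups, with the sample number beside each point and a line at the mean of 3 arrays. Sample 8 is the highest point of its group in all 7 panels, level with sample 9 for Ebf1, and sample 7 the lowest in 6.

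Cd79b, the signalling chain of the B cell receptor, had 2 probes, both detected on all 12 arrays. The first read 12.96, 12.69 and 12.92 in ApoE-/- HC, 12.87, 12.93 and 12.68 in ApoE-/- chow, 12.74, 13.03 and 12.70 in Bl6 HC and 13.08, 13.51 and 13.28 in Bl6 chow samples. All 3 Bl6 chow arrays lay above every array of the other groups, although sample 7 cleared sample 11 by little. The second probe read 12.07, 11.65 and 11.89 in ApoE-/- HC, 11.99, 11.84 and 11.71 in ApoE-/- chow, 12.01, 12.13 and 11.92 in Bl6 HC and 12.19, 12.68 and 12.52 in Bl6 chow samples. It too put the 3 Bl6 chow arrays above the other 9, and the deviations of both probes from their group means correlated with r = 0.89 over the 12 arrays. The pooled SD within groups was 0.17 and 0.18, under the median of 0.24 over all tested probes. Cd79b was thus a member whose Bl6 chow arrays stood apart as a group on the normalised scale. In the unscaled intensities they did not. There sample 7 read 7895 on the first probe, below samples 4 (8758) and 11 (8953). On the second it read 4341, below samples 1 (4379), 4 (4726) and 11 (4822).

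Blk, the Src family kinase of B cells, had 3 probes. Its brightest read 10.57, 10.37 and 10.38 in ApoE-/- HC, 10.39, 10.40 and 10.30 in ApoE-/- chow, 10.62, 10.80 and 10.60 in Bl6 HC and 10.30, 11.30 and 10.86 in Bl6 chow samples. The 3 Bl6 HC arrays lay above all 6 ApoE-/- arrays, whereas Bl6 chow held both the highest array and one level with the lowest. Within that group the range was 2.00-fold, against 1.15-fold in ApoE-/- HC, 1.07-fold in ApoE-/- chow and 1.15-fold in Bl6 HC. The second probe had sample 8 highest as well (10.42, against 9.54 in sample 7 and 10.04 in sample 9). The third ran from 6.33 in sample 5 to 7.16 in sample 8. Deviations of the 3 probes correlated with r = 0.75 to 0.95.

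Ms4a1, the gene of CD20, had 1 probe. It read 7.54, 7.25 and 7.66 in ApoE-/- HC, 7.53, 7.77 and 7.60 in ApoE-/- chow, 7.52, 7.55 and 7.43 in Bl6 HC and 7.44, 8.48 and 8.05 in Bl6 chow samples. Samples 8 and 9 stood above the other 10 arrays, and sample 7 was among the lowest. The Bl6 chow range was 2.06-fold, against 1.09-fold among the Bl6 HC arrays. Sample 11, high for several other members, read with its group here.

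Fcer2a, the gene of CD23, separated arrays of one group widely. Its brightest probe read 9.75, 9.02 and 9.41 in ApoE-/- HC, 9.41, 9.35 and 8.97 in ApoE-/- chow, 9.40, 10.11 and 9.43 in Bl6 HC and 9.62, 10.51 and 10.23 in Bl6 chow samples. Samples 8, 9 and 11 lay above the other 9 arrays. The second probe read 6.88, 6.38 and 6.57 in ApoE-/- HC, 6.59, 6.19 and 6.31 in ApoE-/- chow, 6.66, 8.25 and 6.92 in Bl6 HC and 6.55, 8.07 and 8.11 in Bl6 chow samples. The gap between the same 3 arrays and the others was wider on this probe, with a range of 3.01-fold inside Bl6 HC and 2.95-fold inside Bl6 chow. The third probe read 6.92, 6.38 and 6.56 in ApoE-/- HC, 6.51, 6.54 and 6.18 in ApoE-/- chow, 6.29, 8.16 and 6.57 in Bl6 HC and 6.63, 7.62 and 7.91 in Bl6 chow samples. It again put samples 8, 9 and 11 at the top, and its deviations correlated with those of the other probes with r = 0.86 and 0.95. The SD within groups of these dimmer probes, 0.64 and 0.63, stood at percentiles 99.5 and 99.4 of all tested probes. The brightest probe, at 0.37, stood at 84.7.

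Cr2, the gene of CD21, had 1 tested probe. It read 7.84, 6.70 and 7.53 in ApoE-/- HC, 7.62, 7.23 and 6.50 in ApoE-/- chow, 6.70, 7.85 and 7.18 in Bl6 HC and 7.03, 8.78 and 8.23 in Bl6 chow samples. Every group spanned over 1 log2 unit: 2.20-fold in ApoE-/- HC, 2.17-fold in ApoE-/- chow, 2.21-fold in Bl6 HC and 3.37-fold in Bl6 chow. Its SD within groups of 0.67 stood at percentile 99.6. In ApoE-/-, samples 5 and 3 were the low arrays of their groups for Cr2, and each was the lowest of its group for 5 of the 7 genes. The second Cr2 probe was detected on 0 of 12 arrays and was not tested.

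Cd22, the inhibitory co-receptor, behaved differently. Its brightest probe read 10.47, 10.55 and 10.33 in ApoE-/- HC, 10.44, 10.29 and 10.50 in ApoE-/- chow, 10.70, 10.59 and 10.41 in Bl6 HC and 10.63, 10.92 and 10.56 in Bl6 chow samples. Sample 8 was again highest, but sample 9 was the lowest of its group and sample 10, not 11, the highest Bl6 HC array. The SD within groups was 0.14 (percentile 20.8). The second probe ran from 8.52 in sample 2 to 9.10 in sample 10, with r = 0.63 against the brightest. The third was detected on 9 of 12 arrays, ran from 4.56 to 5.32 and correlated with the others at r = -0.21 and 0.02.

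Of the transcription factors, Ebf1 had 1 tested probe, which read 6.86, 7.10 and 7.36 in ApoE-/- HC, 6.70, 7.14 and 6.69 in ApoE-/- chow, 6.66, 7.45 and 6.64 in Bl6 HC and 6.64, 7.18 and 7.18 in Bl6 chow samples. Samples 11 and 6 were highest, samples 8 and 9 were level, and every group overlapped every other. A second probe, carried under the older symbol Ebf, was detected on 0 of 12 arrays. The probe of Pax5 was detected on 1 array, sample 2, where it read 5.08, and ran from 4.18 to 4.66 on the other 11. Pax5 was therefore not well above background and was not tested.

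The members varied together from array to array, with Cd22 apart. Over the 12 arrays, with group means removed, the 21 pairs among the 7 genes had a median r of 0.70 (from -0.08 to 0.96), 20 were above 0 and 11 were at least 0.7. Each gene set against the mean of the other 6 gave r = 0.96 for Cd79b, 0.93 for Fcer2a, 0.88 for Blk, 0.88 for Cr2, 0.82 for Ms4a1, 0.60 for Ebf1 and 0.14 for Cd22. Fcer2a and Cr2 were closest to each other (r = 0.96), as were Fcer2a and Cd79b (0.96), whereas Cd22 and Ebf1 gave -0.08. Without sample 7 the median r of the pairs was 0.51, and without any other single array 0.64 to 0.76. All values of an array share its hybridisation and scaling, so these correlations are descriptions. By their brightest probes, Cd79b, Ms4a1, Blk, Fcer2a and Cr2 all had sample 8 highest and sample 7 lowest of the Bl6 chow arrays. The amounts differed between genes. On the dimmer Fcer2a probes sample 9 was highest instead, at 8.11 against 8.07 and at 7.91 against 7.62 in sample 8.

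**Figure D2:**
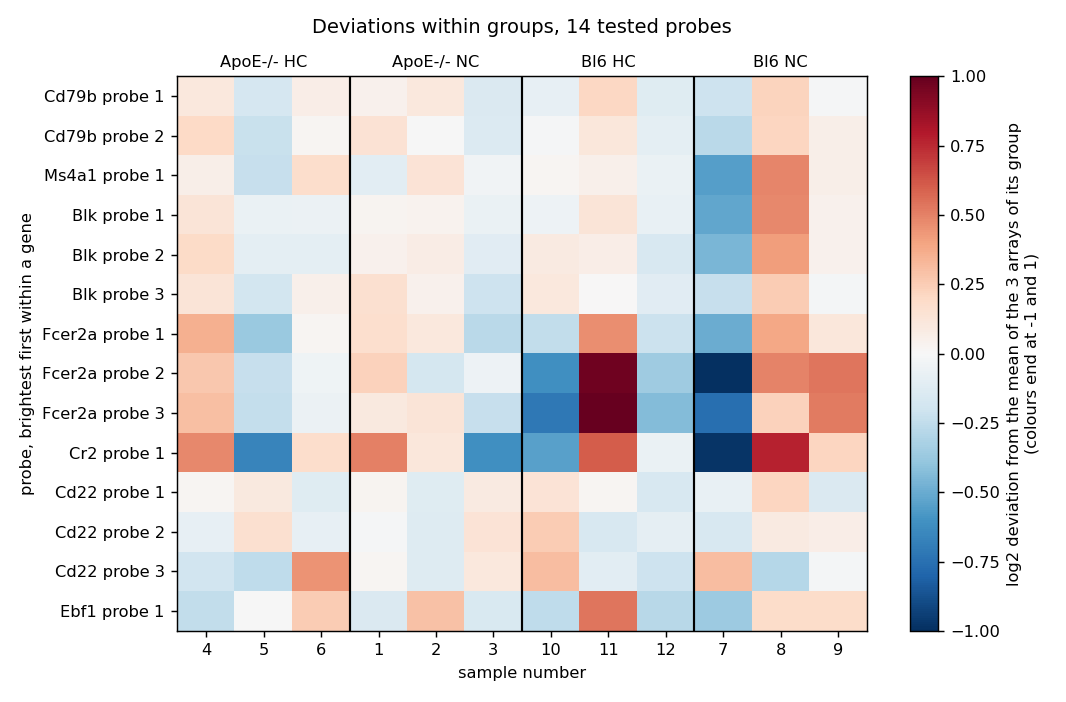
Log2 deviation of each of the 14 tested probes (rows, brightest first within a gene) from the mean of the 3 arrays of its group (columns, by sample number). Red is above and blue below the group mean, with colours ending at -1 and 1. Sample 7 is blue for 12 probes as the lowest of its group and sample 8 is the highest for 11.

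The genotype comparison set CD11c+ cells of ApoE-/- mice against those of Bl6 mice. These arrays also differed in Xist and Eif2s3y, so genotype and sex-linked state cannot be told apart in it. On chow, all 7 genes, each by its brightest tested probe, read lower in ApoE-/- than in Bl6. The median log2 difference was -0.46, against 0.00 over all tested probes. The dimmest Cd22 probe read 0.25 higher in ApoE-/-. With the ApoE-/- diets exchanged, Ebf1 read 0.11 higher in ApoE-/-, the other 6 genes read lower, and the median was -0.44. No member probe passed limma's test: 0 of 14 probes had an adjusted p under 0.05, against 0.254% of all tested probes, and 9 of 14 had an unadjusted p under 0.05, against 2762 of 26390. The 14 probes belong to 7 genes, most of which varied together over the arrays. Counts of them, here and below, are therefore not counts of separate results. The first Cd79b probe averaged 12.83 in ApoE-/- chow and 13.29 in Bl6 chow (-0.47 ± 0.15, adjusted p = 0.273, with ± the standard error of the model). The second averaged 11.85 in ApoE-/- chow and 12.46 in Bl6 chow (-0.61 ± 0.15, adjusted p = 0.172). On both, the 3 ApoE-/- chow arrays lay below the 3 Bl6 chow arrays. Fcer2a averaged 9.24 in ApoE-/- chow and 10.12 in Bl6 chow (-0.88 ± 0.27, adjusted p = 0.259). Cr2 averaged 7.12 ± 0.57 in ApoE-/- chow and 8.01 ± 0.90 in Bl6 chow (SD, n = 3 each), a difference of -0.89 ± 0.47 that was smaller than the spread of the Bl6 chow arrays (adjusted p = 0.549). The groups did not overlap for 7 of 14 member probes, against 16.1% of all tested probes. Those 7 were both Cd79b probes, 2 Cd22 probes, 2 Fcer2a probes and 1 Blk probe. Without sample 8 the median difference was -0.21, and without sample 7 it was -0.63.

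On HC the median genotype difference of the same genes was -0.01, against 0.01 over all tested probes, with 4 genes below and 3 above 0. Again 0 of 14 probes passed, against 0.765% of all, and 1 of 14 had an unadjusted p under 0.05, against 3476 of 26390. That one was the dimmest Blk probe, at 6.51 ± 0.16 in ApoE-/- HC and 6.98 ± 0.11 in Bl6 HC (SD, n = 3 each, -0.47 ± 0.15, adjusted p = 0.21). The groups did not overlap for 2 of 14 probes, both of Blk, against 19.2% of all. Leaving out sample 4 gave a median of -0.13 and leaving out sample 5 gave 0.10, so its sign rested on single arrays.

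Averaged over both diets, 6 genes read lower and Ebf1 read 0.02 ± 0.17 higher in ApoE-/-, with a median of -0.22, against 0.00 over all tested probes. The dimmest Cd22 probe also read higher there, by 0.14. Of the 14 probes 0 passed, against 1.60% of all, with adjusted p-values from 0.115 to 0.976, and 9 had an unadjusted p under 0.05, against 4166 of 26390. The 6 ApoE-/- and 6 Bl6 arrays were fully apart for 0 of 14 probes, against 2.33% of all tested probes. The second Cd79b probe came closest, at -0.38 ± 0.11 (adjusted p = 0.115, and 0.0212 to 0.236 over the alternatives). Without sample 7, the lowest Bl6 chow array by the member mean, 3 of the 14 passed, while the count over all tested probes was 605, against 423 with every array. The 3 were 2 probes of Blk (-0.52, adjusted p = 0.0394, and -0.47, adjusted p = 0.0431) and the second of Fcer2a (-1.20, adjusted p = 0.0431).

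**Figure D3:**
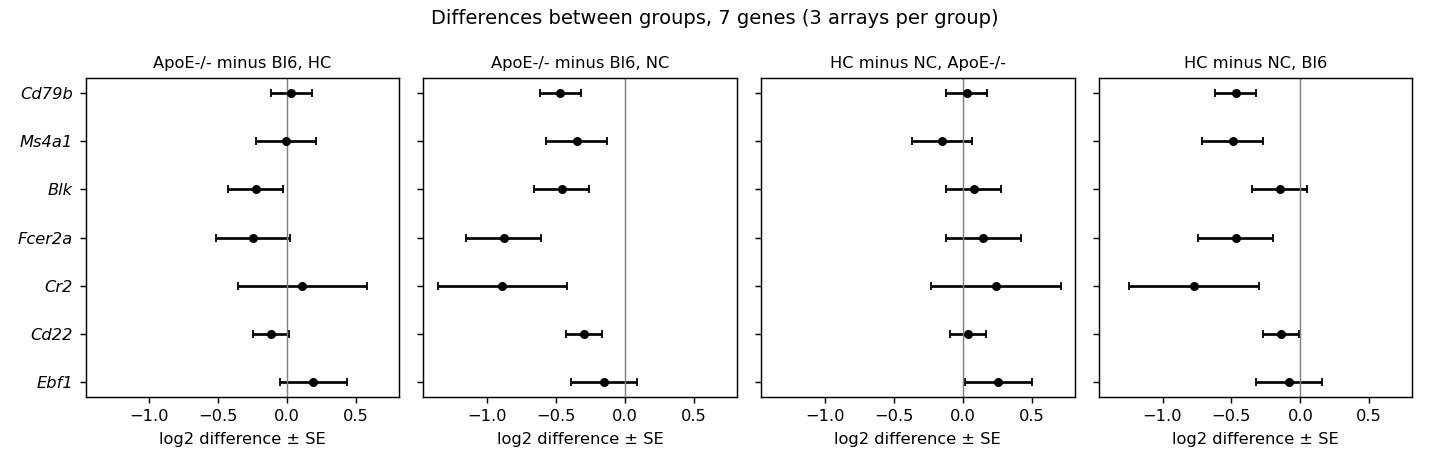
Log2 difference (horizontal axis, points) with its standard error (bars) for 7 genes in 4 comparisons of 3 arrays with 3: ApoE-/- minus Bl6 on HC and on chow (NC), and HC minus chow in ApoE-/- and in Bl6. All 7 points lie below 0 for genotype on chow and for diet in Bl6, and no difference shown passed the test.

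The diet comparison asked what HC did within each genotype. In ApoE-/- samples the median difference between HC and chow was 0.08, 6 genes read higher and Ms4a1 read lower (7.49 in HC and 7.64 in chow, -0.15 ± 0.22). The dimmest probes of Blk (-0.19) and Cd22 (-0.40) also read lower. Of 14 probes 0 passed, as did 0% of all tested probes; at an unadjusted p under 0.05 the counts were 0 of 14 and 981 of 26390. No probe had groups that did not overlap, against 8.31% of all. With the ApoE-/- diets exchanged, as the other deposited table names them, the median was -0.08. The sign of the median thus depended on which table names the arrays.

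In Bl6 samples all 7 genes, each by its brightest tested probe, read lower on HC than on chow. The median was -0.47, against 0.00 over all tested probes. The dimmest Blk probe read 0.07 higher on HC. Here too 0 of 14 probes passed, against 0.0379% of all, and 3 of 14 had an unadjusted p under 0.05, against 3155 of 26390. Cd79b averaged 12.82 in Bl6 HC and 13.29 in Bl6 chow samples (-0.47 ± 0.15, adjusted p = 0.252). Ms4a1 averaged 7.50 ± 0.06 in Bl6 HC and 7.99 ± 0.52 in Bl6 chow (SD, n = 3 each, -0.49 ± 0.22, adjusted p = 0.406), and sample 7 of the chow group lay among the HC arrays. Cr2 averaged 7.24 in Bl6 HC and 8.01 in Bl6 chow (-0.77 ± 0.47, adjusted p = 0.56). The groups did not overlap for 2 of 14 probes, both of Cd79b, against 4235 of all 26390 tested probes. This comparison and that of genotype on chow share the 3 Bl6 chow arrays, which hold samples 7 and 8. Without sample 8 the median was -0.24 and without sample 7 it was -0.57.

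The interaction of genotype and diet had a median of 0.34 over the 7 genes. By their brightest probes all were above 0, from 0.18 for Cd22 to 1.00 for Cr2. The dimmest probes of Blk (-0.27) and Cd22 (-0.23) stood below 0. Of 14 probes 0 passed, as did 0% of all tested probes, and 1 of 14 had an unadjusted p under 0.05, against 2006 of 26390. The first Cd79b probe had the smallest adjusted p of a member, 0.613 (0.50 ± 0.21). Without sample 7 the median was 0.60. With the ApoE-/- diets exchanged it was 0.32, and Ebf1 stood at -0.18.

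Other genes of the B lineage were followed in 4 lists that hold none of the members. Of the surface and homing list 16 of 20 genes were tested, and their mean followed that of the members with r = 0.93 over the 12 arrays, group means removed. It was 9.95, 9.77 and 9.84 in ApoE-/- HC, 9.75, 9.80 and 9.73 in ApoE-/- chow, 9.82, 9.89 and 9.76 in Bl6 HC and 9.82, 10.22 and 10.10 in Bl6 chow samples. Samples 8 and 9 were again the top arrays, and 7 of the 16 genes reached r = 0.7. Chosen after their values were seen, Cxcr5, the chemokine receptor that guides B cells into follicles (r = 0.97), Tnfrsf13c, the BAFF receptor (0.96), and Fcmr, the Fc receptor for IgM (0.92), were closest. In the genotype comparison averaged over diets 1 of the 16 genes fell and 0 rose, with a list median of -0.18 against 0.00 over all tested probes. That gene was Cd1d1, which presents lipids to natural killer T cells, which fell by 0.56 ± 0.10 on the log2 scale (adjusted p = 0.0213). It lay between 9.98 and 10.44 on ApoE-/- arrays and between 10.56 and 10.87 on Bl6 arrays, and its r with the members was -0.33. Fcrl1 read -0.27 ± 0.12 (adjusted p = 0.302) and Fcrl5 0.58 ± 0.18 (adjusted p = 0.142), both Fc receptor-like proteins of B cells.

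The signalling list tied less closely to the members. With 17 of 20 genes tested, its mean had r = 0.43, and 2 genes reached 0.7. Of the 17, 0 passed in any of the 6 comparisons, and the median genotype difference averaged over diets was -0.01. In that comparison the adaptor Blnk read -0.33 ± 0.09 (adjusted p = 0.105), the scaffold Bank1 -0.34 ± 0.10 (adjusted p = 0.118) and the adaptor Pik3ap1 0.23 ± 0.07 (adjusted p = 0.15). The transcription factor list (15 of 16 genes tested, r = 0.55) likewise had 0 passing in any comparison and a median of 0.09. Its smallest p-values were those of Pou2af1, a co-activator of octamer factors (-0.29 ± 0.09, adjusted p = 0.14), Spi1, the factor PU.1 (0.21 ± 0.09, adjusted p = 0.263), and Spib, its relative (-0.22 ± 0.10, adjusted p = 0.322).

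Immunoglobulin and plasma cell genes did not follow the members as a group. With 13 of 18 genes tested the list mean had r = 0.32, 0 genes passed in any comparison, and the median averaged over diets was -0.08. Vpreb3, a surrogate light chain relative found in B cells, read 9.07, 8.50 and 8.77 in ApoE-/- HC, 8.63, 8.63 and 8.53 in ApoE-/- chow, 8.53, 9.07 and 8.55 in Bl6 HC and 8.52, 9.76 and 9.46 in Bl6 chow samples. It copied the members (r = 0.96), whereas the plasma cell receptor Tnfrsf17 (0.38) and Irf4 (0.09), a factor of plasma cells, did so less. Averaged over diets, the genotype differences of these 3 were -0.29 ± 0.20, 0.22 ± 0.12 and -0.12 ± 0.09 (adjusted p = 0.52, 0.431 and 0.583). Chosen after their values were seen, the heavy chain Ighm (14.56 to 14.80, r = 0.22) and the light chain Igkc (14.59 to 14.84, r = -0.18) read near 14.93. That was the highest value on any array. Igll1, Prdm1 and Sdc1, named for their detection counts, were found on 4, 7 and 7 of 12 arrays. How far readings near the top of the scale or near background limited the r of the list was not tested.

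**Figure D4:**
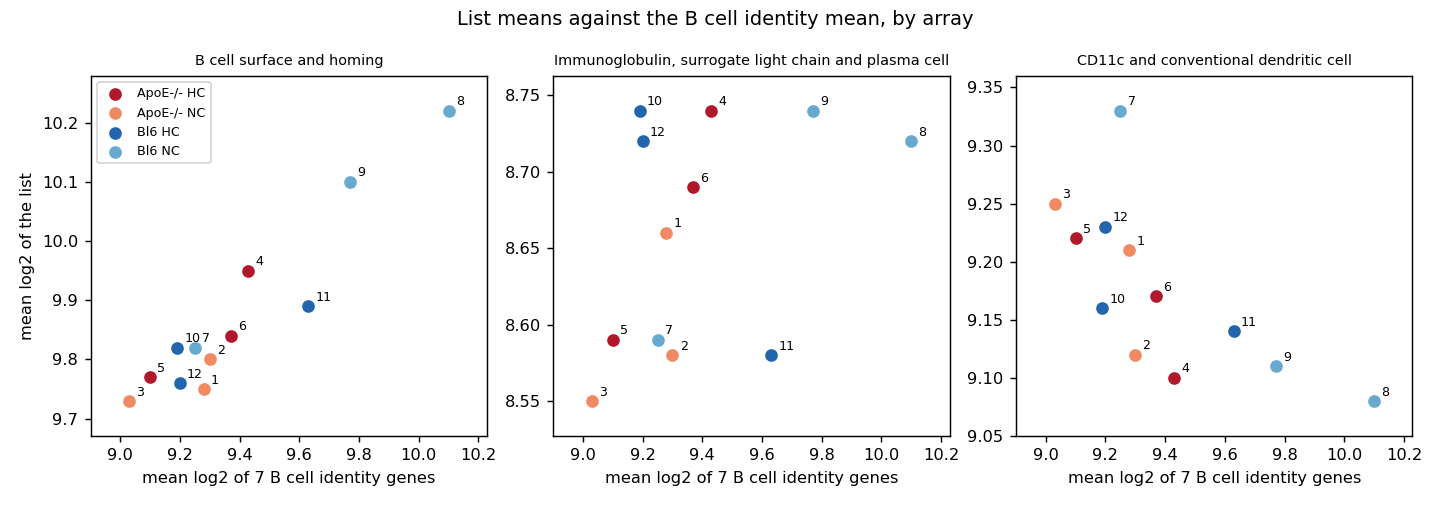
Mean log2 level of 3 gene lists (vertical axes) against the mean of the 7 B cell identity genes (horizontal axes) on each of the 12 arrays, coloured by group and marked by sample number. The surface and homing list climbs with the members up to samples 9 and 8, the immunoglobulin list is scattered, and the CD11c and dendritic cell list is lowest on sample 8.

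Among 13536 other named genes, 49 had r of at least 0.9 with the member mean and the median r was 0.01. The 8 closest were Chchd10 (0.98), Rap1gap (0.97), Cxcr5 (0.97), Ell3 (0.97), Sos2 (0.97), Lta (0.96), Ddx25 (0.96) and Vpreb3 (0.96), each over 12 arrays. Chchd10, which encodes a mitochondrial protein, read 11.08, 10.73 and 10.96 in ApoE-/- HC, 11.00, 10.91 and 10.59 in ApoE-/- chow, 10.88, 11.25 and 10.80 in Bl6 HC and 10.72, 11.66 and 11.34 in Bl6 chow samples. Samples 8, 9 and 11 were its highest arrays, a likeness to the members for which it was chosen. Chchd10 (chr10:75933130-75937750) and Vpreb3 (chr10:75943024-75949657) lie near each other with 1 gene between them. Both are shown because of that nearness and their like pattern over the arrays, as the 250 bases before an annotated start on the plus strand: Chchd10 at chr10:75932880-75933129 and Vpreb3 at chr10:75948050-75948299. The start used for Vpreb3 lies inside the annotated gene. Capitals mark the octamer in both, and the ETS letters in Vpreb3.
Chchd10: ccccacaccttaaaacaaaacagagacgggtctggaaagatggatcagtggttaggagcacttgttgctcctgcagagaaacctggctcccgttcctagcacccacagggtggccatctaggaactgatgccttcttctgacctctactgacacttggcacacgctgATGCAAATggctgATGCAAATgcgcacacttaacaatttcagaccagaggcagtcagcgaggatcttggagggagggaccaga
Vpreb3: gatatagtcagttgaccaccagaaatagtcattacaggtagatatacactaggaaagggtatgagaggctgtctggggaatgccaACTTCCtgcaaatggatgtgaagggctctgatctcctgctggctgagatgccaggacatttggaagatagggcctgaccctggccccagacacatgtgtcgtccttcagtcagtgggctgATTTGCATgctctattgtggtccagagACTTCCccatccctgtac
The octamer letters stood at -83 and -70 of Chchd10, on the opposite strand, and at -45 of Vpreb3, against 1.74% of all windows. The ETS letters stood at -165 and -18 of Vpreb3. The windows of the 8 genes numbered 13, some of them at overlapping starts of Rap1gap. The octamer stood in 2 of them, and only Chchd10 and Vpreb3 held it. The EBF letters also stood in 2, overlapping windows of Rap1gap, against 0.904% of all windows. The ETS letters stood in 2 (23.8% of all) and the E box letters in 3 (20.2% of all). Whether any of these counts departs from the share over all windows was not tested.

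Markers of other cell types differed between the same arrays, and their part in the results was not tested. The CD11c and conventional dendritic cell list (12 of 12 genes tested) ran opposite to the members, with r = -0.88. Its mean was 9.10 to 9.22 in ApoE-/- HC, 9.12 to 9.25 in ApoE-/- chow, 9.14 to 9.23 in Bl6 HC and 9.08 to 9.33 in Bl6 chow samples. Sample 7 held the highest value of that list and sample 8 the lowest, the reverse of their order for B cell genes. In it 0 genes rose and 1 fell for genotype averaged over diets, with a median of 0.08. Gene by gene the relation was looser, with a median r of -0.43 and 3 of 12 genes above 0. Of its defining genes, Itgax itself had r = -0.30, Zbtb46 -0.63, Xcr1 -0.78 and Clec9a -0.67, and the 3 above 0 were Dtx1 (0.53), Cadm1 (0.23) and Flt3 (0.14).

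The neutrophil list (11 of 12 genes tested, r = 0.72) averaged 8.42 to 8.98 in ApoE-/- HC, 8.49 to 8.93 in ApoE-/- chow, 7.48 to 7.70 in Bl6 HC and 7.60 to 7.92 in Bl6 chow samples. Averaged over diets 8 of its genes rose in ApoE-/-, with a median of 1.19. Samples 5 and 3, low for most members, were also the low ApoE-/- arrays there. The T cell list (12 of 16 tested, r = 0.10) averaged 9.32 to 9.58 in ApoE-/- HC, 9.38 to 9.56 in ApoE-/- chow, 9.12 to 9.16 in Bl6 HC and 8.94 to 9.22 in Bl6 chow, and 3 of its genes rose. The NK cell list (8 of 10) had r = 0.43, with 1 gene that rose. Its means lay between 8.85 and 9.29 on ApoE-/- arrays and between 8.71 and 9.11 on Bl6 arrays. The defining genes Cd8a, Gzmb and Mmp8 of these lists did not pass the detection filter.

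The plasmacytoid dendritic cell list (9 of 12, r = -0.29) averaged 10.07 to 10.24 in ApoE-/- HC, 10.00 to 10.13 in ApoE-/- chow, 10.00 to 10.08 in Bl6 HC and 10.30 to 10.56 in Bl6 chow samples. It was thus highest in the group that also held the top B cell arrays, although within that group sample 7 was highest for this list and sample 8 lowest. Of its genes, Klk1 fell in ApoE-/- for genotype on chow and averaged over diets. The macrophage list (13 of 14, r = 0.11) averaged 11.99 to 12.03 in Bl6 HC samples and 11.60 to 11.85 on the other 9 arrays. Much of the gap between Bl6 HC and Bl6 chow came from Vsig4, chosen after its values were seen. It read 9.34 to 9.69 in Bl6 HC and 5.57 to 6.34 in Bl6 chow samples, whereas the list's median diet difference in Bl6 was 0.08. Of the macrophage genes 2, Cd68 and C1qa, fell in ApoE-/- for genotype averaged over diets. The follicular dendritic cell and stroma list (7 of 12, r = -0.61) ran from 5.96 in sample 8 to 6.83 in sample 12, and the erythroid list (5 of 8, r = -0.52) from 9.66 in sample 11 to 11.27 in sample 7.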

How the data were processed

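RNA of CD11c+ spleen cells was measured on 12 arrays, 3 per group. Per the file headers, the authors' deposited table gives an intensity for each of 46237 probes on each array, neither background-corrected nor scaled, and beside each the deposited detection p-value. A second deposited table holds log2 values, each column equal to the log2 of 1 intensity column plus a constant of at most 0.443. The 6 ApoE-/- columns there stand under the other diet. Names from the table of intensities were used.

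Intensities were corrected with limma's nec (normexp from the detection p-values, offset 16), quantile-normalised and log2-transformed (limma 3.58.1, R 4.3.3). One model with 4 group means was fitted to the 26390 probes with detection p under 0.05 on at least 3 of 12 arrays (8 residual and 3.42 prior degrees of freedom), with limma's two-sided moderated test and Benjamini-Hochberg adjustment over all tested probes. A gene is said to rise or fall where its adjusted p was under 0.05. The fit was tested on simulated data with known changes. Probes were named from the platform annotation (35784 probes with 1 symbol, 10453 with none), updated through the GRCm38.p6 gene table. Where a gene needed 1 value, its brightest tested probe stood for it.

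The members and lists were chosen with earlier results of these data known. Genes named were all members, from each B lineage list those that passed or the 3 with the smallest p for genotype averaged over diets, and the 8 genes whose deviations from group means were most like the member mean; others are marked as chosen after their values were seen, and other cell types were given by list means and defining genes. The number of arrays limits the precision, and no probe's level was set against another's. Alternatives changed the background correction, the offset, the scaling, the values used, the filter, the arrays in the fit, the ApoE-/- names, and each array left out in turn. The promoter sequences are from RefSeq (GRCm38.p6). Cd79a is not analysed here.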

Additional observations from a re-analysis of the deposited data

How the results depend on the processing

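The count of member probes that passed was 0 for genotype on HC, diet in ApoE-/-, diet in Bl6 and the interaction under every alternative run. For genotype on chow it was 1 with no background correction (the second Cd79b probe, -0.60, adjusted p = 0.0274). For genotype averaged over diets it was 1 with no background correction (-0.37, adjusted p = 0.0212), 1 with an offset of 50 (-0.38, adjusted p = 0.0438) and 1 with the deposited log2 values (-0.30, adjusted p = 0.04), each time the same Cd79b probe, and 0 to 3 when each array was left out in turn, with 3 without sample 7. The cause was not tested. Over all probes the counts that passed ran from 26 to 225 for genotype on chow, 22 to 949 on HC, 142 to 1653 averaged over diets, 2 to 266 for diet in Bl6 and 0 to 10 for the interaction, against 67, 202, 423, 10 and 0. Median scaling moved the median difference of the members on chow to -0.31 and the Bl6 diet difference to -0.28, where the median over all probes was 0.06 and 0.04. In the deposited log2 values the median over all probes for genotype on HC was 0.11, against 0.01. Of 826 values of single genes under alternatives, each by the gene's brightest tested probe, 1 changed its side of the threshold. The other calls that changed were on probes outside that count, the second probes of Cd79b, Blk and Fcer2a. Exchanging the ApoE-/- diets changed no member's call. Sample 8 was the highest Bl6 chow array and sample 11 the highest Bl6 HC array by the member mean under all 5 other settings of that mean, while the highest ApoE-/- array was sample 4 or 6 on HC and 2 or 1 on chow. No paired analysis was possible because the running numbers 1 to 12 are shared by no groups. Signal over background limits Pax5, the second Cr2 probe and the second Ebf1 probe. They were left out of the main fit, so it gives no result on them.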

Other observations

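Some genes outside the B lineage lists also followed the member mean from array to array, over 12 arrays with group means removed. They were chosen after their values were seen. Hmox1, the haem-degrading enzyme placed in the macrophage list, had r = 0.89 although its list had 0.11. It read 12.72, 12.38 and 12.60 in ApoE-/- HC, 12.64, 12.66 and 12.60 in ApoE-/- chow, 12.94, 13.31 and 12.83 in Bl6 HC and 12.78, 13.21 and 12.92 in Bl6 chow samples, with samples 11 and 8 highest. Prf1, the perforin of cytotoxic cells, had r = 0.84, and samples 9 and 8 were its highest arrays at 10.28 and 10.22. S100a8, a calcium-binding protein of neutrophils, had r = 0.87 while it lay between 13.03 and 13.62 on ApoE-/- arrays and between 11.98 and 12.66 on Bl6 arrays.

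Genes of the immunoglobulin and plasma cell list did not all go one way. Jchain and Mzb1 were picked from it after their values were seen. Jchain, which joins IgM and IgA into polymers, had r = 0.72 with the member mean, whereas Mzb1, a chaperone of immunoglobulin assembly, had r = -0.71. Mzb1 read 12.35 in sample 11, against 13.02 and 12.99 in samples 10 and 12, and 12.61 in sample 8, against 13.20 in sample 7.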
